A study of Homo sapiens
Mus musculus with 16 samples.

Results

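The genes described are 10 markers and transcription factors of the epithelial-mesenchymal transition (EMT), read in the human, tumour-cell part of a xenograft. They were chosen by name, not by their values, out of 58051 human genes in the count matrix, though with earlier results of these data known. 9 of the 10 passed the filter on low counts that left 18131 human genes to test, and TWIST1 did not. Each is a protein-coding gene, listed in the matrix by its Ensembl identifier: CDH1 (ENSG00000039068), EPCAM (ENSG00000119888), CDH2 (ENSG00000170558), VIM (ENSG00000026025), FN1 (ENSG00000115414), SNAI1 (ENSG00000124216), SNAI2 (ENSG00000019549), ZEB1 (ENSG00000148516), ZEB2 (ENSG00000169554) and TWIST1 (ENSG00000122691).

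The tumours grew from MDA-MB-231, an established human triple-negative breast cancer line with mesenchymal features, after 2 M cells in 50 µl of PBS and Matrigel were placed in the mammary fat pad of Balb/c nude mice, which lack a thymus and so most T cells. There were 4 groups of 4 mice: vehicle, nab-paclitaxel at 30 mg/kg on days 15, 22 and 29, phenelzine at 40 mg/kg daily from day 15, and the combination of both schedules. All agents were given by intraperitoneal injection, and the tumours were taken 50 days after transplantation, 1 paired-end mRNA library for each mouse. Nab-paclitaxel is the albumin-bound form of the microtubule-stabilising taxane paclitaxel, and phenelzine inhibits monoamine oxidases and also the related histone demethylase LSD1.

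In EMT, epithelial cells give up adherens junctions and polarity for a motile, mesenchymal state. E-cadherin, encoded by CDH1, holds epithelial neighbours together, and the zinc-finger factors of the SNAI and ZEB families and the helix-loop-helix factor TWIST1 repress it through E-box sequences in its promoter. LSD1 is a known partner of SNAI1 in that repression, and phenelzine acts on LSD1, which is one reason to read these genes here.

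Human totals ranged from 11.1 to 34.5 M counts per library. Levels are CPM of the human matrix, a gene's count over the library's total for the human genes tested, scaled by edgeR's TMM factors. They are compared for 1 gene between libraries, never between genes, because CPM takes no account of gene length. The share of all counts that fell in the mouse matrix, a measure of host RNA in the library, ranged from 9.25% to 37.8% in the 8 libraries without nab-paclitaxel and from 18.6% to 71.2% in the 8 with it. On the first principal component of the human genes (48.7% of the variance), nab-paclitaxel 1 and 4 and combination 1 and 3 stood apart, with scores of 72.7 to 125 against -56.6 to 5.37 for the other 12 libraries. Their mouse shares were 59.7%, 41.9%, 71.2% and 55.9%. The average nab-paclitaxel effects on CDH1, EPCAM, ZEB1, VIM and CDH2 are given with and without these 4 libraries.

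With nab-paclitaxel, the epithelial genes CDH1 and EPCAM rose and ZEB1, a repressor of the epithelial state, fell, while phenelzine moved none of the 9 tested genes past the threshold. All 3 calls ended without the 4 libraries that stood apart (edgeR adjusted p = 0.242, 0.131 and 0.363) and with the mouse share of each library as a covariate (adjusted p = 0.383, 0.676 and 0.832). The 4 libraries were set apart on these same data and held the highest CDH1 and EPCAM and the lowest ZEB1 values. Leaving them out was therefore bound to weaken the 3 effects, so it shows where the effects lie and does not test the calls. The mouse share moved with the treatment, at a mean of 42.4% with nab-paclitaxel and 16.8% without. The run with that covariate therefore cannot separate the drug from the mouse share, and the calls it lost are no test of a taxane effect. These calls set the 8 libraries with nab-paclitaxel against the 8 without, as an average over both phenelzine states (edgeR's quasi-likelihood test, Benjamini-Hochberg adjusted p under 0.05 over all genes tested). Of the 10 genes 2 rose, 1 fell, 6 did not pass and 1 was not tested. Of all genes tested, 17.3% were called in this comparison, 11.2% higher and 6.07% lower. The median log2 fold change was -0.04 over the 9 genes and -0.01 over all genes tested. As the 9 genes moved in both directions, the median of the absolute values is given too, 0.41 over the 9 genes and 0.27 over all. In bulk tissue, fewer cells of a type and less RNA per cell cannot be told apart.

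**Figure D1:**
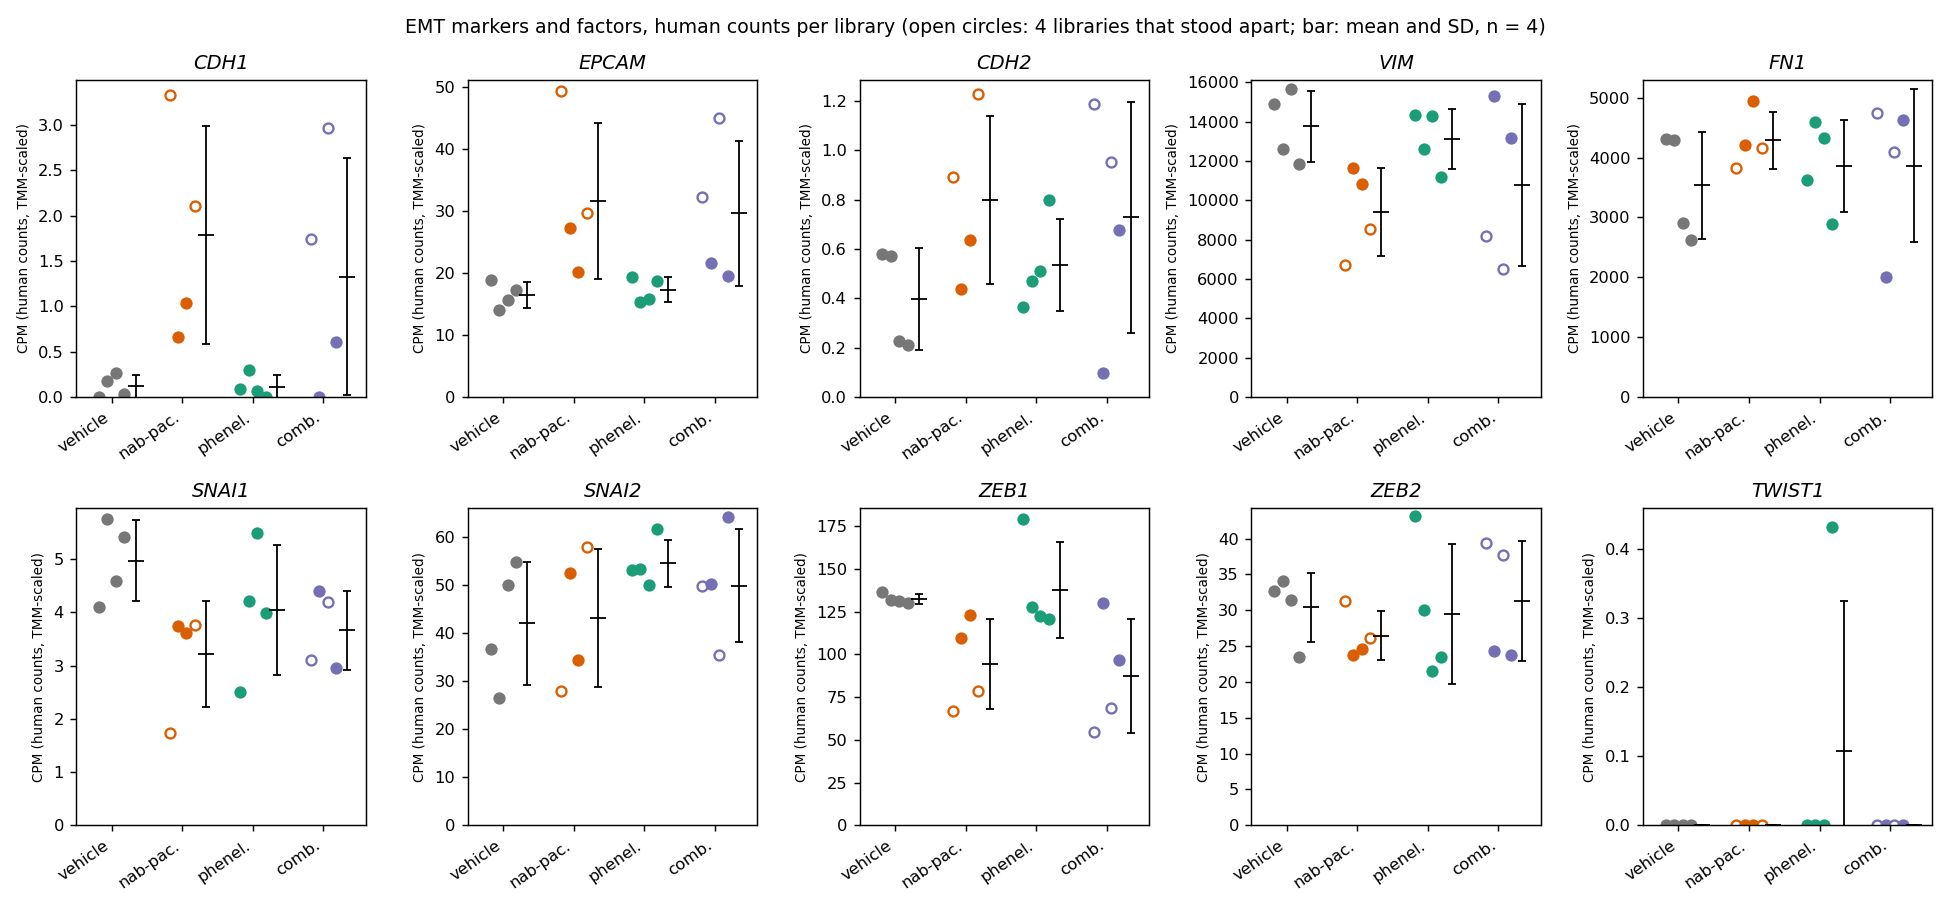
Level of each EMT gene in CPM (vertical axes from 0, TMM-scaled human counts) in the 4 libraries of each treatment, with the group mean and SD (n = 4) as a bar; open circles are the 4 libraries that stood apart. CDH1 and EPCAM are highest, and VIM and ZEB1 lowest, in the open circles, and every EPCAM value with nab-paclitaxel lies above every value without it.

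CDH1 (E-cadherin; chromosome 16, 68737292 to 68835537 in the RefSeq annotation of GRCh38.p14) was close to absent without the taxane. Its counts in mice 1 to 4 were 0, 4, 7 and 1 with vehicle and 3, 10, 2 and 0 with phenelzine. In tumours given nab-paclitaxel alone they were 56, 21, 34 and 53, and in combination tumours 19, 0, 53 and 17. All 4 nab-paclitaxel libraries thus lay above all 8 libraries without the taxane, and so did 3 of the 4 combination libraries, whereas combination 2 had no count.

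On the CPM scale CDH1 averaged 0.118 ± 0.125 in vehicle and 0.111 ± 0.127 in phenelzine tumours, against 1.78 ± 1.20 in nab-paclitaxel and 1.33 ± 1.31 in combination tumours (SD, n = 4 each). Where no CDH1 count was listed, the level may still reach 0.0968 CPM in vehicle 1, 0.0999 in phenelzine 4 and 0.147 in combination 2, the size of 3 counts, with counting error alone considered. The 8 libraries with nab-paclitaxel were 13.0-fold higher than the 8 without, which on the log2 scale is 3.70 (SE 0.827, edgeR adjusted p = 0.00987). Without the 4 libraries that stood apart the log2 fold change was 2.17, and with the mouse share as a covariate 2.36, neither past the threshold. The gene passed the filter on low counts through the libraries with the taxane, and without that filter the adjusted p was 0.00824 (edgeR). Low counts in this matrix do not behave as single reads: the values 1, 2, 3 and 4 occur 14483, 24107, 24309 and 10534 times, so the smallest CDH1 counts carry more error than counting alone gives.

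EPCAM (chromosome 2, 47369311 to 47387020) encodes an epithelial cell adhesion molecule of carcinoma cells. In mice 1 to 4 it stood at 18.9, 14.0, 15.6 and 17.3 CPM with vehicle and at 19.3, 15.3, 15.8 and 18.7 CPM with phenelzine. It stood at 49.5, 27.3, 20.1 and 29.7 CPM with nab-paclitaxel and at 32.4, 21.6, 45.0 and 19.6 CPM with the combination. The 2 sides did not overlap: the lowest library with the taxane, combination 4, was just above the highest without it, phenelzine 1. Such a separation of 8 from 8 was seen in 2.05% of all genes tested. EPCAM was 1.81-fold higher with nab-paclitaxel, which on the log2 scale is 0.86 (SE 0.194, edgeR adjusted p = 0.0104). The spread widened with the taxane, from an SD of 1.97 CPM over the 8 libraries without it to 11.3 CPM over the 8 with it.

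Among the mesenchymal genes, none passed the threshold in the average nab-paclitaxel effect. VIM (chromosome 10, 17228241 to 17237593) encodes vimentin, the intermediate filament of mesenchymal cells. Its level was 14899, 12614, 15682 and 11859 CPM in vehicle mice 1 to 4 and 14369, 12629, 14278 and 11206 CPM with phenelzine. It was 6711, 11630, 10839 and 8537 CPM with nab-paclitaxel and 8168, 15292, 6522 and 13159 CPM with the combination. The 4 lowest libraries of all 16 were those that stood apart, and combination 2 was the second highest. The average log2 fold change was -0.41 (SE 0.178, edgeR adjusted p = 0.114). Leaving out combination 2 alone brought VIM past the threshold, at a log2 fold change of -0.51 (edgeR adjusted p = 0.0395). Combination 2 had the highest VIM of the libraries with the taxane, so leaving it out was bound to deepen the fall and does not test it. Without the 4 libraries that stood apart it was -0.09 (adjusted p = 0.775), and with the mouse share as a covariate -0.03 (adjusted p = 0.980).

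FN1 encodes fibronectin, a matrix glycoprotein that cells make more of in EMT. It ranged from 2618 to 4591 CPM without nab-paclitaxel and from 2000 to 4955 CPM with it. Its 4 group means, 3537 ± 900 with vehicle, 3860 ± 767 with phenelzine, 3868 ± 1277 with the combination and 4290 ± 475 CPM with nab-paclitaxel (SD, n = 4), followed each other by less than these SDs. The average nab-paclitaxel effect was 0.14 on the log2 scale (95% interval -0.24 to 0.52, edgeR adjusted p = 0.603).

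CDH2 encodes N-cadherin, the cadherin that replaces E-cadherin in many mesenchymal cells, and it was scarce here, at 2 to 31 counts per library. It stood at 0.210 to 0.799 CPM in the 8 libraries without nab-paclitaxel and at 0.0980 to 1.23 CPM in the 8 with it, so the 2 sides overlapped at both ends. Its average log2 fold change was 0.70 (SE 0.407, edgeR adjusted p = 0.230). The 4 libraries that stood apart held the 4 highest CDH2 values, 0.892 to 1.23 CPM, and so had high CDH1 and high CDH2 together. Without them the log2 fold change of CDH2 was 0.02 (edgeR adjusted p = 0.991).

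ZEB1 (chromosome 10, 31318417 to 31529804) encodes a zinc-finger repressor of CDH1 and of epithelial microRNA genes. The vehicle libraries were close together, at 136.7, 132, 131 and 130.2 CPM in mice 1 to 4, an SD of 2.81 CPM. With phenelzine the values were 179, 128, 122 and 121 CPM, with phenelzine 1 well above the others. They were 66.7, 109.7, 123 and 78.7 CPM with nab-paclitaxel and 54.6, 130.1, 68.5 and 96.9 CPM with the combination. Every library with the taxane lay below every vehicle library, combination 2 only just, at 130.1 against 130.2 CPM in vehicle 4. The share of all genes that separate in this way was not counted. Nab-paclitaxel 3 and combination 2 lay above phenelzine 3 and 4, so the libraries with and without the taxane overlapped. The 4 lowest of all were again those that stood apart.

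The average ZEB1 level was 1.48-fold lower with nab-paclitaxel, which on the log2 scale is -0.57 (SE 0.172, edgeR adjusted p = 0.0359). The call was close to the threshold: leaving out 1 library ended it for 10 of the 16 libraries, with adjusted p from 0.0515 to 0.0769, while the log2 fold change lay between -0.58 and -0.47. The CDH1 and EPCAM calls held with any 1 library left out, with edgeR adjusted p up to 0.0256 and 0.0242, but not with the 4 libraries that stood apart left out together or with the mouse share as a covariate.

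**Figure D2:**
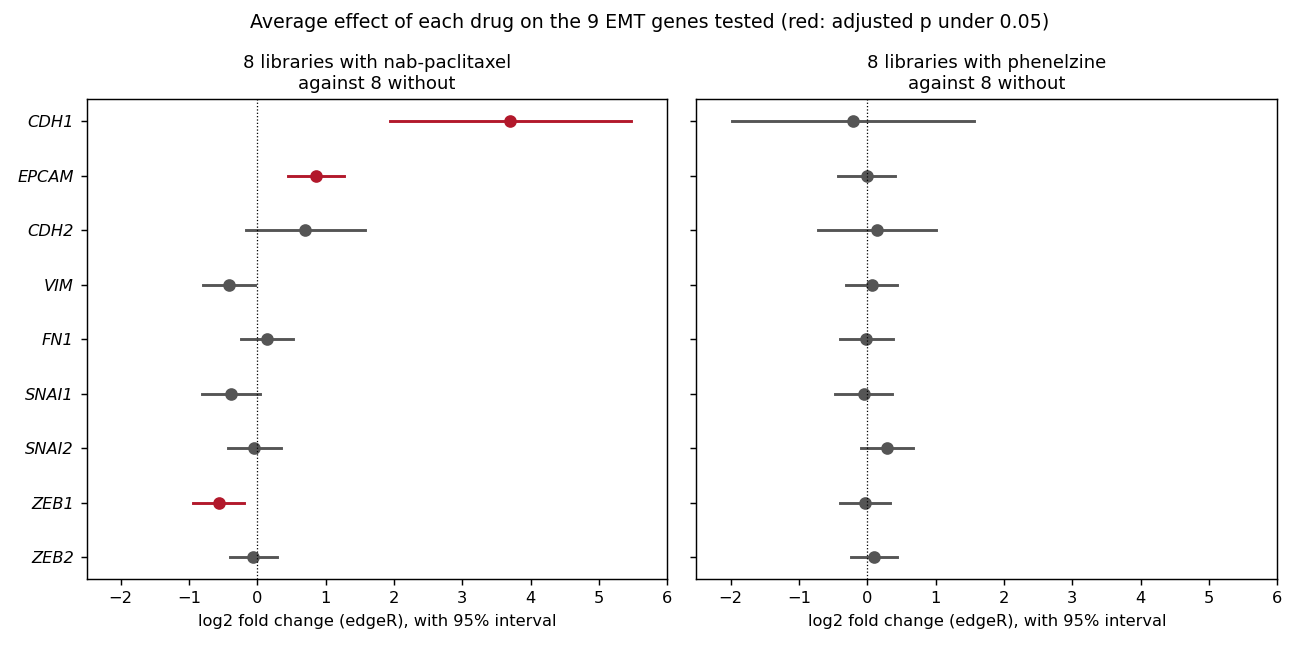
Log2 fold change (horizontal axis, edgeR) with its 95% interval for the 9 tested EMT genes, for nab-paclitaxel (left) and phenelzine (right), each 8 libraries against 8. With nab-paclitaxel CDH1 at 3.70, EPCAM at 0.86 and ZEB1 at -0.57 are past the adjusted threshold (red); with phenelzine every interval includes 0.

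ZEB2, the paralogue of ZEB1, did not pass. It ranged from 21.5 to 43.1 CPM without nab-paclitaxel and from 23.7 to 39.4 CPM with it, and the average effect was -0.06 on the log2 scale (95% interval -0.40 to 0.28, edgeR adjusted p = 0.815). In 3 of the 4 libraries that stood apart it was at 31.3 CPM or more while ZEB1 was at 68.5 CPM or less. Within a library, where scaling plays no part, there were 387 to 570 ZEB1 counts per 100 ZEB2 counts without nab-paclitaxel and 139 to 534 with it.

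SNAI1 and SNAI2 encode the zinc-finger repressors Snail and Slug. SNAI1 stood at 4.10, 5.76, 4.60 and 5.42 CPM in vehicle mice 1 to 4 and at 1.72, 3.75, 3.61 and 3.77 CPM with nab-paclitaxel, with no overlap between these groups. The phenelzine libraries, at 2.50 to 5.48 CPM, and the combination libraries, at 2.95 to 4.41 CPM, overlapped both. The average nab-paclitaxel effect on SNAI1 was -0.38 (SE 0.199, edgeR adjusted p = 0.182). SNAI2 ranged from 26.6 to 61.7 CPM without the taxane and from 27.9 to 64.2 CPM with it, an average effect of -0.04 on the log2 scale (95% interval -0.43 to 0.34, edgeR adjusted p = 0.883).

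TWIST1 was listed at 0 in 15 of the 16 libraries and at 13 counts, 0.433 CPM, in phenelzine 4. The limits that a count of 0 allows ran from 0.0879 to 0.274 CPM, so a low level could not be detected at this depth, and the gene gives no comparison. These limits consider counting error alone. Low counts in this matrix do not behave as single reads, so the limits may be too low.

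Each drug and their combination were also set against single groups of 4, where no EMT gene passed. For nab-paclitaxel against vehicle, edgeR called 0 of the 9 genes, with 0.165% of all genes called, and 4 of the 9, beside 20.3% of all genes, had an unadjusted p under 0.05. DESeq2 called 2, CDH1 and EPCAM, among 1441 genes in all. The log2 fold changes were 3.92 (SE 1.18, edgeR adjusted p = 0.109) for CDH1, 0.94 (SE 0.275, adjusted p = 0.101) for EPCAM, -0.55 (SE 0.253, adjusted p = 0.240) for VIM and -0.62 (SE 0.281, adjusted p = 0.229) for SNAI1. In these 4 genes and in ZEB1 the 2 groups did not overlap, as in 15.1% of all genes tested. Without the 4 libraries that stood apart the log2 fold change was 2.88 for CDH1 (edgeR adjusted p = 0.401) and 0.53 for EPCAM (adjusted p = 0.292). For VIM it was -0.29 (edgeR adjusted p = 0.564).

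For the combination against vehicle edgeR again called 0 of the 9, with 0.734% of all genes called and 3 of the 9, beside 22.4% of all genes, at an unadjusted p under 0.05. DESeq2 called 2, among 1574 genes in all. CDH1 differed by 3.49 (SE 1.18, edgeR adjusted p = 0.122), EPCAM by 0.85 (SE 0.275, adjusted p = 0.111) and ZEB1 by -0.60 (SE 0.244, adjusted p = 0.173) on the log2 scale. This comparison depended on which libraries were in it. Combination 2, the library with no CDH1 count, lay on the vehicle side of the combination mean in all 3 genes. Leaving it out was therefore bound to enlarge the 3 effects and does not test them. Without combination 2 all 3 passed, CDH1 at 3.94 (edgeR adjusted p = 0.0330), EPCAM at 0.99 (adjusted p = 0.0491) and ZEB1 at -0.84 (adjusted p = 0.0442). The number of all genes called then went from 133 to 1388. With any other of the 8 libraries left out, 0 of the 9 genes passed. The number of all genes called fell to 1 without vehicle 1 and to 2 without combination 3.

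The combination against phenelzine adds the taxane to phenelzine and shares no library with nab-paclitaxel against vehicle. EdgeR called 0 of the 9, with 2.27% of all genes called and 3 of the 9, beside 23.0% of all genes, at an unadjusted p under 0.05. DESeq2 called 1, CDH1, among 1832 genes in all. The log2 fold changes were 3.48 (SE 1.16, edgeR adjusted p = 0.104) for CDH1, 0.78 (SE 0.274, adjusted p = 0.122) for EPCAM and -0.65 (SE 0.244, adjusted p = 0.139) for ZEB1. Without combination 2, CDH1 at 3.91 (edgeR adjusted p = 0.0294) and ZEB1 at -0.90 (adjusted p = 0.0335) passed, while the number of all genes called went from 412 to 1487. Here too leaving that library out was bound to enlarge these effects, so it does not test them. With any other of the 8 libraries left out, 0 of the 9 genes passed.

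Phenelzine left no called change in these genes. Over 8 libraries with and 8 without it, edgeR called 0 of the 9 genes and 0% of all genes, with 0 of the 9 at an unadjusted p under 0.05, and DESeq2 called 0 of the 9. The 95% intervals of the average phenelzine effect on the log2 scale were -0.32 to 0.44 for VIM, -0.38 to 0.37 for FN1, -0.42 to 0.40 for EPCAM and -0.39 to 0.34 for ZEB1. They were -0.48 to 0.37 for SNAI1, -0.24 to 0.44 for ZEB2 and -0.09 to 0.68 for SNAI2. For the scarce cadherins they were wide, -1.98 to 1.56 for CDH1 and -0.73 to 0.9998 for CDH2, so a change of 2-fold in either direction in CDH1 lay within the interval.

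The gene with the lowest unadjusted p for phenelzine was SNAI2, at 52.3 ± 8.71 CPM in the 8 libraries with it and 42.7 ± 12.7 CPM in the 8 without (SD, n = 8), a log2 difference of 0.29 (SE 0.180, edgeR adjusted p = 0.99996). It was picked out after its values were seen. Vehicle 2 at 26.6, nab-paclitaxel 1 at 27.9 and nab-paclitaxel 3 at 34.4 CPM lay below all 8 with phenelzine, and the other 5 overlapped them. Phenelzine alone against vehicle and the combination against nab-paclitaxel likewise gave 0 calls among the 9 (edgeR; 0% and 0.00552% of all genes called; 0 of the 9 at an unadjusted p under 0.05 in either; 0 by DESeq2).

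The interaction, which asks whether the effect of 1 drug differed with the other, gave 0 calls among the 9 and 0% of all genes (edgeR; 0 of the 9 at an unadjusted p under 0.05; 0 by DESeq2). Its estimates had wide intervals, -3.93 to 3.05 for CDH1, -0.99 to 0.65 for EPCAM and -0.90 to 0.57 for ZEB1 on the log2 scale, so a sizeable difference in the taxane effect with and without phenelzine could not be detected.

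The balance of EPCAM to ZEB1 was also taken within each library, as a ratio of counts that needs no scaling between libraries. Per 100 ZEB1 counts there were 13.8, 10.6, 11.8 and 13.3 EPCAM counts in vehicle mice 1 to 4 and 10.8, 12.0, 12.9 and 15.5 with phenelzine. There were 74.2, 24.9, 16.3 and 37.7 with nab-paclitaxel and 59.3, 16.6, 65.7 and 20.2 with the combination. All 8 libraries with the taxane lay above all 8 without it, by a small margin in nab-paclitaxel 3 and combination 2 and by a wide one in the 4 that stood apart. The ratio joins 2 genes called above in opposite directions, and EPCAM alone already separated the 2 sides. The separation of the ratio therefore adds no evidence to those calls, and it is a description with no test.

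**Figure D3:**
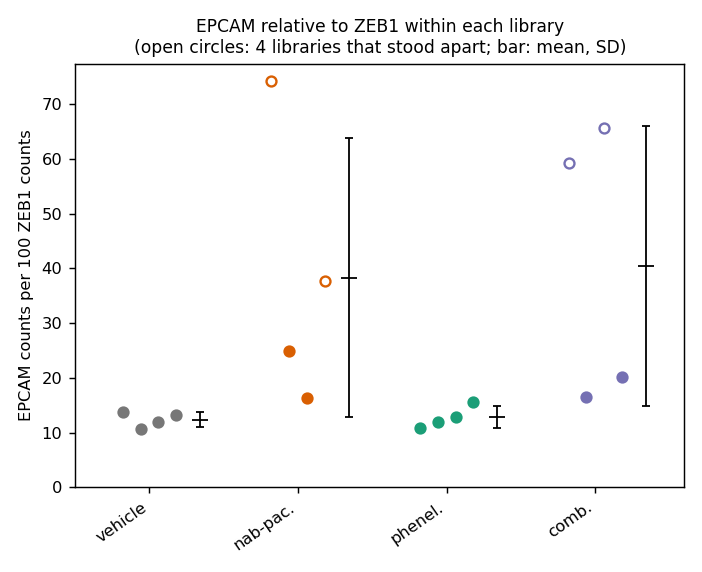
EPCAM counts per 100 ZEB1 counts (vertical axis from 0) in each library by treatment, with the group mean and SD (n = 4) as a bar; open circles are the 4 libraries that stood apart. The 8 libraries without nab-paclitaxel lie between 10.6 and 15.5, and the 8 with it between 16.3 and 74.2.

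Levels varied widely among the tumours treated with the taxane. In the 4 libraries that stood apart CDH1 was at 1.74 to 3.33 CPM, EPCAM at 29.7 to 49.5, VIM at 6522 to 8537 and ZEB1 at 54.6 to 78.7 CPM. In the other 4 with nab-paclitaxel CDH1 was at 0 to 1.03, EPCAM at 19.6 to 27.3, VIM at 10839 to 15292 and ZEB1 at 96.9 to 130.1 CPM, and the 2 sets did not overlap in any of these 4 genes. Nor did they overlap in the mesenchymal genes CDH2 and ZEB2, which were higher in the libraries that stood apart: CDH2 at 0.892 to 1.23 against 0.0980 to 0.676 CPM, and ZEB2 at 26.2 to 39.4 against 23.7 to 24.6 CPM. They overlapped in FN1, SNAI1 and SNAI2. These sets come from a component that includes the EMT genes and holds 48.7% of the variance, so the contrast is given with no test. The share of all genes that separate the 2 sets was not counted, so the separation cannot be read as particular to the EMT genes. Without the 4 libraries the average nab-paclitaxel effect kept its direction and lost each call: CDH1 2.17 (edgeR adjusted p = 0.242), EPCAM 0.39 (adjusted p = 0.131) and ZEB1 -0.23 (adjusted p = 0.363).

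The mouse share moved with these genes and with the treatment, so a fit that includes it cannot separate the share from the drug. With the share of each library as a covariate, the average nab-paclitaxel effect was 2.36 for CDH1 (edgeR adjusted p = 0.383), 0.35 for EPCAM (adjusted p = 0.676) and -0.19 for ZEB1 (adjusted p = 0.832), and 34 genes in all were called in place of 3131. No source used here says how reads were divided between species, and the part of misassigned mouse reads in the human CDH1 count was not tested. The libraries with many mouse counts differed among themselves: combination 2 had 0 CDH1 counts beside 19.5 M mouse counts and combination 3 had 53 beside 20.3 M. Vehicle 2, with 14.4 M mouse counts, had 4, and nab-paclitaxel 3, with 8.53 M, had 34. Combination 1, with the most mouse counts of all, 27.4 M, had 19. Other libraries went with the mouse counts. Nab-paclitaxel 1, with 22.9 M, had 56 CDH1 counts. Vehicle 1, vehicle 4 and phenelzine 3, with 5.21, 5.28 and 3.46 M, had 0, 1 and 2. For EPCAM and ZEB1, vehicle 2 stood at 14.0 and 132 CPM at a mouse share of 37.8%, and nab-paclitaxel 4 at 29.7 and 78.7 CPM at a share of 41.9%. Nab-paclitaxel 1 stood at 49.5 and 66.7 CPM at a share of 59.7%, and phenelzine 3 at 15.8 and 122 CPM at 9.25%. The cause of these differences was not tested.

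**Figure D4:**
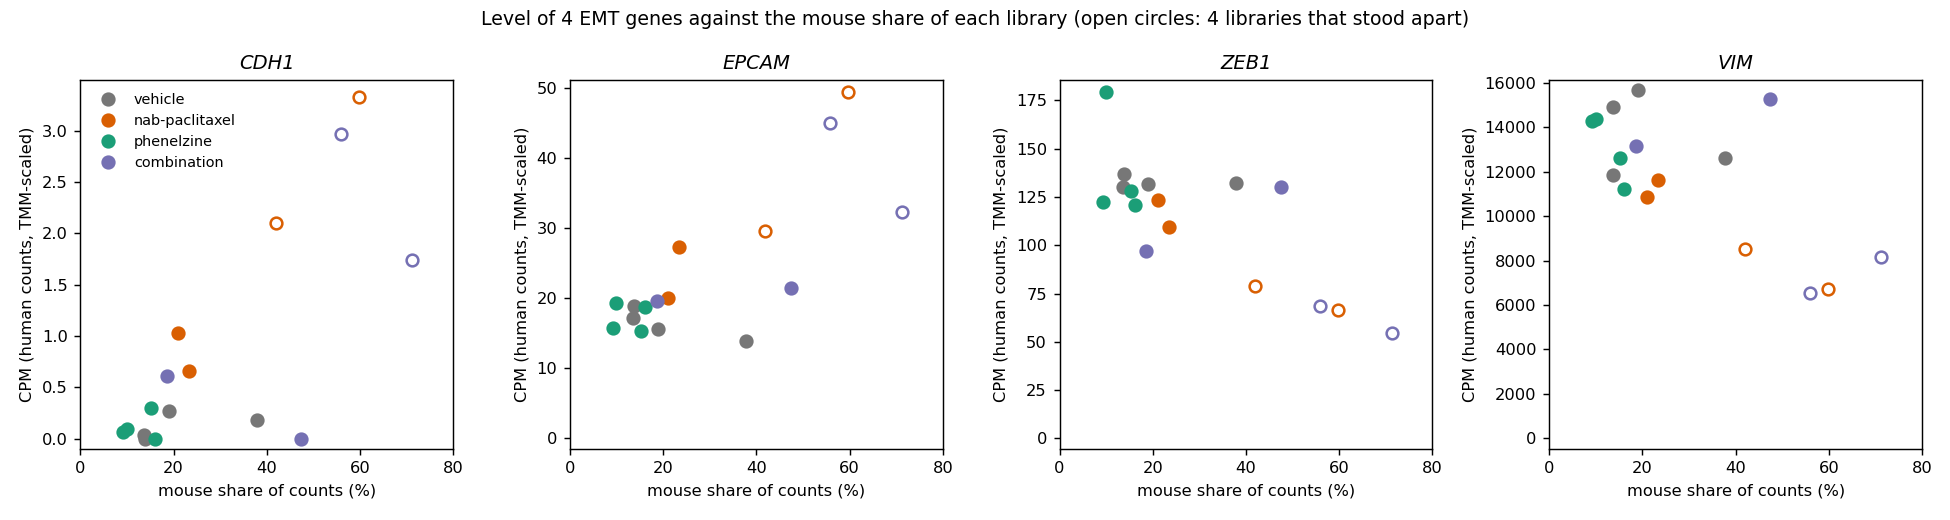
Level of CDH1, EPCAM, ZEB1 and VIM in CPM (vertical axes) against the mouse share of counts in percent (horizontal axes), 1 point per library, coloured by treatment; open circles are the 4 libraries that stood apart. Those 4, at shares of 41.9% to 71.2%, hold the highest CDH1 and EPCAM and the lowest ZEB1 and VIM values, whereas vehicle 2 at 37.8% and combination 2 at 47.4% lie with or near the other libraries.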

How the data were processed

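The authors deposited whole-number counts per gene as 1 human and 1 mouse matrix with the same 16 libraries, each library matched to its mouse by the sample name in its description. The submitters' processing notes list HISAT2 2.04, StringTie, Trimmomatic 0.36, Picard and edgeR beside mm10 and hg38, without saying what each did; no source used here states the division of reads between species, duplicate removal, strand or annotation. The files pair no Ensembl ID with a symbol, and the reference table (GRCh38.p14) matched 0 of them. The 10 genes were therefore identified by the IDs given with their symbols, and wider EMT, TGF-beta and host marker lists, host orthologues, promoter E-boxes and genes of like pattern were not analysed here. All 10 genes are named; the genes, lists and contrasts were chosen with earlier results of these data known.

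Human counts were filtered on low values (edgeR's default, minimum count of 10), scaled with TMM and fitted with 1 mean for each of the 4 groups in edgeR 4.0.16 (R 4.3.3), which left 12 residual degrees of freedom among the 16 libraries. Tests used the quasi-likelihood F statistic and Benjamini-Hochberg adjustment over 18131 genes, threshold 0.05. Average effects weight both states of the other drug equally. Standard errors are the fold change over the square root of F, with 95% intervals from the t distribution. CPM uses the counts of tested genes times the TMM factor. The p-values measure the spread between mice, 1 library each. A count of 0 was taken to allow up to 3 counts. On simulated data the average nab-paclitaxel effect recovered 64% of 2-fold and 84% of 4-fold changes, with 8 false among 177 calls. The simulation drew each gene independently and held no split among the taxane libraries, so it does not cover that feature of the data. Alternatives were DESeq2 1.42.0, other scaling, no filter, the mouse share as a covariate, a replicate block, and libraries left out; the fit with no scaling factors was added after the data were seen.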

Additional observations from a re-analysis of the deposited data

Results flagged for a closer look

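In 2 of the 36 sets of 4 libraries in which an EMT gene had counts in 2 or more libraries, 1 library lay far from the other 3 of its treatment group; chance alone gives about 1 in 20 such sets. SNAI1 in nab-paclitaxel 1 was at 1.72 CPM, below 3.61 to 3.77 CPM in the other 3. ZEB1 in phenelzine 1 was at 179 CPM, above 121 to 128 CPM in the other 3, and the same library had the highest ZEB2 value of all 16, 43.1 CPM. TWIST1 in phenelzine 4 was at 0.433 CPM (13 counts), with 0 counts in the other 3; a single value above 0 is always far from the rest, so it is not counted among these sets.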

How the results depend on the processing

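The direction of the CDH1, EPCAM and ZEB1 effects of nab-paclitaxel held in every alternative run, and their calls held with DESeq2, with either other scaling and with the replicate block. With 1 library left out the log2 fold changes ran from 3.30 to 4.25 for CDH1, 0.72 to 0.95 for EPCAM and -0.68 to -0.47 for ZEB1, with 2 to 4 EMT genes called. Without a filter ZEB1 was at -0.58 (edgeR adjusted p = 0.0501). With the mouse share as a covariate they were 2.36, 0.35 and -0.19, with 0 of the EMT genes and 34 of all genes called. Without the 4 libraries that stood apart they were 2.17, 0.39 and -0.23, with 0 EMT genes and 305 of all genes called. Here only the nab-paclitaxel and combination groups have fewer libraries, and the vehicle and phenelzine groups keep all of theirs.

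The number of human genes called, the background for the counts above, moved more. It was 3131 for the average nab-paclitaxel effect, 1855 to 4909 with 1 library left out. For nab-paclitaxel against vehicle it was 30, with 0 to 703 with 1 library left out, 89 without a filter, 17 with the mouse share, 0 with the replicate block and 1441 with DESeq2 (2 EMT genes). For the combination against vehicle it was 133, with 1 to 1388 (0 to 3 EMT genes) with 1 library left out, 71 with no scaling factors, 2 with the mouse share, 10 with the replicate block, 21 without the 4 libraries and 1574 with DESeq2 (2 EMT genes). For the combination against phenelzine it was 412, with 7 to 1487 (0 to 2 EMT genes) with 1 library left out, 4 with the mouse share, 97 with the replicate block, 46 without the 4 libraries and 1832 with DESeq2 (1 EMT gene). For the combination against nab-paclitaxel it was 1, with 0 to 1 with 1 library left out, 0 with the replicate block, 6 without the 4 libraries and 10 with DESeq2. The average phenelzine effect had 0, with 0 to 1 with 1 library left out, 1 without a filter, 4 without the 4 libraries and 8 with DESeq2. Phenelzine against vehicle had 0, with 0 to 1 with 1 library left out and 4 with DESeq2. The interaction had 0, with 0 to 1 with 1 library left out, 1 without a filter, 4 without the 4 libraries and 11 with DESeq2. The causes were not tested.

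The replicate numbers gave no clear pairing of the mice. Of 24 same-numbered pairs 4 had deviations correlated above 0.1 (r from -0.43 to 0.57), and 6 of 16 libraries correlated best with their own number. Correlations between nab-paclitaxel and combination libraries followed which of them stood apart, as for nab-paclitaxel 1 with combination 3 (r = 0.59) and combination 2 (r = -0.59). The correlations therefore cannot show or exclude a pairing. With the replicate block CDH1 was at 3.64, EPCAM at 0.84 and ZEB1 at -0.60 (edgeR adjusted p = 0.0281, 0.0159 and 0.0444). Depth limits CDH1, CDH2 and TWIST1.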
